A study of Mus musculus with 6 samples.

Results

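The heat shock proteins and chaperonins are the machinery that folds newly made proteins and refolds damaged ones. Members were the GRCm38 protein-coding genes whose symbol begins with Hsp90a, Hspa, Hspb, Hspd, Hspe, Hsph, Dnaja, Dnajb, Dnajc or Hsf, together with Tcp1 and the numbered Cct genes. The ER chaperone genes Hspa5, Dnajb9, Dnajb11 and Dnajc3 were left out. This gave 86 genes of 21887, in 10 families by symbol. A gene counted as marked in a library when a peak of that library overlapped the 1000 bp on either side of the start or end of the gene. The rule uses symbols and no measured value, but the set was proposed with earlier results of these data known.

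Hsp70 proteins, encoded by the Hspa genes, bind unfolded stretches of a protein and release them with ATP, and the J-domain proteins of the Dnaja, Dnajb and Dnajc families deliver the clients. Hsp90 completes the folding of kinases and steroid receptors, and the chaperonin TRiC, a stacked ring of Tcp1 and Cct subunits, folds actin and tubulin. The heat shock factors, encoded by the Hsf genes, bind heat shock elements in promoters and switch many of these genes on under stress. Islet beta cells make secretory protein at a high rate and rely on protein folding factors to do so.

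The label cytosolic holds for most but not all of the 86 genes. A list of mitochondrial members holds 10, among them Hspd1, Hspe1 and Hspa9, and a list of members of the endoplasmic reticulum holds another 10, among them Hspa13 and Dnajc10. Some symbols are broader than the function, since Hspb11 encodes a part of the intraflagellar transport machinery and Hsf2bp a partner of a heat shock factor in germ cells.

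Open chromatin was measured by ATAC-seq, in which a transposase cuts accessible DNA, in hand-picked islets of mice aged 16 weeks. Knockout-Acsl4 islets came from mice labelled BetaRicKO, which lack the mTORC2 subunit Rictor in beta cells, and received an adenovirus with Acsl4, an enzyme that activates long-chain fatty acids. Knockout-GFP islets came from BetaRicKO mice and received a GFP virus, and control-GFP islets came from wild-type mice and received the GFP virus too. Exposure to virus lasted 48 h ex vivo in all groups, and each group had 2 libraries. The Cre driver is not stated in the labels. Nor do they state how many mice gave the islets of a group, so p-values measure only the spread between these libraries, which may be technical. Whole islets hold other endocrine cells beside beta cells, and fewer cells of a type cannot be told apart from less open chromatin per cell.

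The lists held between 525 and 5874 peaks, and the libraries differed in how many of these lay at gene ends. That share was 35.8% and 5.29% in knockout-Acsl4 1 and 2, 67.2% and 75.5% in knockout-GFP 1 and 2, and 70.9% and 21.7% in control-GFP 1 and 2. Both knockout-Acsl4 libraries and control-GFP 2 therefore stand apart from the other 3 over all genes. Of 10 beta cell markers, Mafa and Nkx6-1 were marked, both in knockout-GFP 2 and control-GFP 1, and neither insulin gene was marked. Of 30 markers of other islet, acinar, ductal, endothelial, stromal and immune cells, 0 were marked in any library. Of all protein-coding genes 24.5% were marked in some library. The beta cell count is not far from that share, and the count of the other markers lies below it.

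A few promoters, chosen for the heat shock elements in them, show what the peaks cover there. They are not typical, since of the 21 members with such an element 5 had it under a peak, a count not made for other genes. The promoters are RefSeq windows of GRCm38.p6 from 250 bases before to 50 after a gene start, given 5′ to 3′ on the strand of the gene. Capitals mark the heat shock letters GAANNTTC and TTCNNGAA, 2 dimers that read the same on both strands and can overlap. The trimer, in which a GAANNTTC and a TTCNNGAA share their TTC, was searched on both strands. The first window is that of Hspe1, on the plus strand at chr1:55087898-55088197, and lies within the annotated Hspd1 gene, which overlaps the start of Hspe1. Hsph1 lies on the minus strand at chr5:149636266-149636565, Cct5 on the minus strand at chr15:31601797-31602096, and Hspa1b on the minus strand at chr17:34959189-34959488. Hspa1b was added after its values were seen.
Hspe1: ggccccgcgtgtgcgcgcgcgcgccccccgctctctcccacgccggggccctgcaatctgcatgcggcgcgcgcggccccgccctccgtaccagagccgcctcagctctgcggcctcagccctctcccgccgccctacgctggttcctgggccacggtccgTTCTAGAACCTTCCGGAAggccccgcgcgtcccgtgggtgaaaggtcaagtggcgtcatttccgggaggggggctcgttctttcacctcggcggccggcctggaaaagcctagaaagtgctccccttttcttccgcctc
Hsph1: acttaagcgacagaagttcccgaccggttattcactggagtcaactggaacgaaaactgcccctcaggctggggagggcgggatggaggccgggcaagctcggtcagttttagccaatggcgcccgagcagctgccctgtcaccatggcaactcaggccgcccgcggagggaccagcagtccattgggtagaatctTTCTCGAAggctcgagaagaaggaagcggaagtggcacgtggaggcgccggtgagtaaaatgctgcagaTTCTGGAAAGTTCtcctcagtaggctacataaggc
Cct5: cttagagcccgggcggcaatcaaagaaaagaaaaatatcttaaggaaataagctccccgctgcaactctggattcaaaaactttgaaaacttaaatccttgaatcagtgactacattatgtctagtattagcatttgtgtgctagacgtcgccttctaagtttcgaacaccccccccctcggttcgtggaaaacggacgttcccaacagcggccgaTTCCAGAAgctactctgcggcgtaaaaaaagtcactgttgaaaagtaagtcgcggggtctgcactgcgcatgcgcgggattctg
Hspa1b: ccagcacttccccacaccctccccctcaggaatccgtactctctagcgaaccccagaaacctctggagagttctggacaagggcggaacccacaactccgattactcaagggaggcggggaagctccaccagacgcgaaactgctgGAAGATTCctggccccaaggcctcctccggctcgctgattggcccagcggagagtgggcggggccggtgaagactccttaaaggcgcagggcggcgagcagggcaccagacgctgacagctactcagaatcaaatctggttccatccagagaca

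In the window of Hspe1, the mitochondrial co-chaperonin, a run of overlapping elements, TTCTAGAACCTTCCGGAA, began 89 bases before the start. It lay under a peak in knockout-GFP 1, knockout-GFP 2 and control-GFP 1. Hsph1, which reloads Hsp70 with nucleotide, held a dimer 54 bases before the start and a trimer 15 bases after it, and both lay under a peak in the same 3 libraries. The Cct5 dimer, 34 bases before the start of this chaperonin subunit gene, lay under a peak in knockout-Acsl4 1, knockout-GFP 1 and knockout-GFP 2. The dimer of Hspa1b, the classical stress-induced Hsp70, lay under no peak.

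The promoter table held 69 of the 86 members, of which 31 were marked in at least 1 library. A heat shock dimer of either kind occurred in 21 of the 69 members (30.4%), against 15.7% of the 17492 protein-coding genes in the table. The trimer occurred in 4 members (5.8%), namely Hspd1, Hspe1, Hsph1 and Dnajb6, against 0.595% of protein-coding genes. The elements of Hspd1 and Hspe1 are the same bases, since their windows overlap. They are counted for both genes here, among the 21 members, and among the 5 members below. Of the 21 members with a dimer 11 were marked, and of the 48 without one 20 were marked. Over all protein-coding genes in the table, 21.9% of those with a dimer and 25.9% of those without one were marked. The element lay under a peak in 5 members, which were Hspd1, Hspe1, Hsph1, Cct5 and Dnaja1. How often it lay under a peak in other genes was not counted. The GC box GGGCGG was present in 69.6% of members and 49.2% of protein-coding genes, and the ETS letters CCGGAAG in 21.7% and 12.9%. The CCAAT box was present in 42.0% of members and 42.3% of protein-coding genes. The TATA box TATAAA was present in 7.25% of members and 14.8% of protein-coding genes, and the NRF1 site in 1.45% and 1.47%. These are matches of letters on either strand, were not tested as binding sites, and carry no test between members and other genes.

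Between 1 and 29 of the 86 genes were marked per library. In knockout-Acsl4 1 and 2 the counts were 1 and 6 (1.16% and 6.98%), where 1.02% and 1.58% of all protein-coding genes were marked. In knockout-GFP 1 and 2 they were 20 and 26 (23.3% and 30.2%), where 8.2% and 17.3% of all genes were marked. In control-GFP 1 and 2 they were 29 and 4 (33.7% and 4.65%), where 16.7% and 2.0% of all genes were marked. The members lay above the figure for all genes in each of the 6 libraries, by 0.139 percentage points in knockout-Acsl4 1, the smallest distance, and by 17.0 in control-GFP 1, the widest. In knockout-Acsl4 1 the share rests on 1 gene and is near that of all genes. With only the stronger peaks of each list, the members did not lie above all genes in every library. No test of the list against other genes was made.

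**Figure D1:**
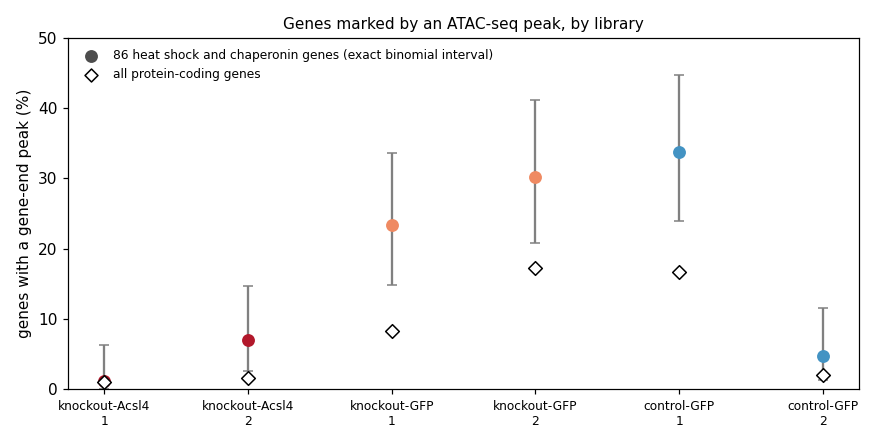
Share of genes (%) with a peak within 1000 bp of a gene end in each library, with the 86 heat shock and chaperonin genes as filled circles with 95% exact binomial intervals (counting error only) and all 21887 protein-coding genes as diamonds. Knockout-GFP 1, knockout-GFP 2 and control-GFP 1 lie between 23.3% and 33.7%, and the other libraries at or below 6.98%.

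Over all libraries 38 of the 86 members were marked at least once (44.2%), against 24.5% of all protein-coding genes. A peak in at least 3 libraries was found at 19 members (22.1%), against 6.52% of all genes. The commonest pattern was a peak in knockout-GFP 1, knockout-GFP 2 and control-GFP 1 and nowhere else, which 13 members had (15.1%), against 4.0% of all genes. No member was marked in 5 or 6 libraries, whereas 2, Hspa8 and Hsph1, were marked in 4. The 48 members without a gene-end peak include Hsf1, Hsp90ab1, Hspa1a, Hspa1b, Hspb1 and Cct4.

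**Figure D2:**
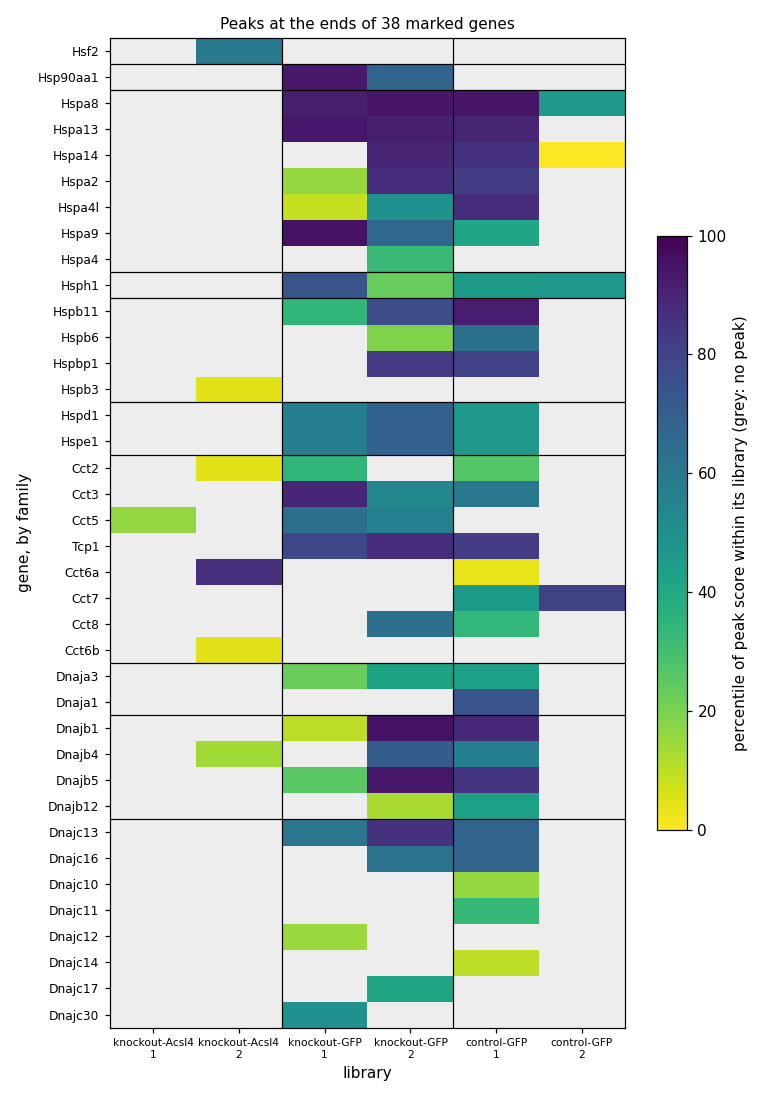
Score percentile within its own library (colour, 0 to 100; grey, no peak) of the strongest gene-end peak at each of the 38 marked genes (rows, by family) in the 6 libraries (columns). The filled cells lie mostly in knockout-GFP 1, knockout-GFP 2 and control-GFP 1, with 1 in knockout-Acsl4 1, 6 in knockout-Acsl4 2 and 4 in control-GFP 2.

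Of 7 Hsf genes, which encode the heat shock factors and a partner, 1 was marked, not far from the 24.5% of all genes. This was Hsf2, in knockout-Acsl4 2, by a peak at the far end of the gene from its start and with a score percentile of 59.7. A score percentile ranks a peak among all peaks of its own library, with 100 the strongest. Hsf1, the main stress-activated factor, had no peak at either end in any library.

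Among the Hsp70 genes, Hspa8, the constitutive cytosolic Hsp70, had no peak in either knockout-Acsl4 library and a peak in the other 4 libraries. Its percentiles were 91.5 and 94.1 in knockout-GFP 1 and 2, and 94.1 and 46.2 in control-GFP 1 and 2. All of these peaks overlapped each other at the lower-coordinate end of the gene on chromosome 9, where that of knockout-GFP 1 spanned 40800791 to 40801367 and that of control-GFP 2 spanned 40801103 to 40801296. Hspa13, an Hsp70 relative of microsomes, had the most even ranks, with 93.6 and 91.7 in knockout-GFP 1 and 2 and 89.5 in control-GFP 1.

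Hspa9, the mitochondrial Hsp70, had percentiles of 95.1 and 66.2 in knockout-GFP 1 and 2 and 40.7 in control-GFP 1. Hspa2, best known from spermatogenesis, had 16.0 and 87.0 in knockout-GFP 1 and 2 and 82.5 in control-GFP 1. Hspa4l, an Hsp110-type nucleotide exchange factor, had 8.84 and 49.4 in knockout-GFP 1 and 2 and 87.4 in control-GFP 1. The ranks of Hspa2 and Hspa4l were thus low in knockout-GFP 1 and higher in the other 2 libraries.

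Hspa14, a ribosome-associated Hsp70 relative, was marked in knockout-GFP 2 (89.3) and in control-GFP 1 and 2 (85.5 and 0.123), the last being among the weakest peaks of its list. Its peak also lies at the end of the neighbouring gene Cdnf, so it cannot be given to either gene alone. Hspa4 was marked in knockout-GFP 2 only, at a percentile of 32.5. The stress-induced copies Hspa1a and Hspa1b, with Hspa1l, Hspa12a and Hspa12b, were not marked. The promoter windows of Hspa1a and Hspa1b agree at 296 of 300 bases, and how reads from such copies were handled is not stated in the labels.

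Hsph1 was marked in the same 4 libraries as Hspa8, with percentiles of 73.9 and 23.2 in knockout-GFP 1 and 2 and 45.6 and 46.7 in control-GFP 1 and 2. Its peak in control-GFP 2, from 149636051 to 149636213 on chromosome 5, lay inside the gene beyond the printed promoter, whereas the other 3 covered between 219 and 300 of its 300 bases. The cytosolic Hsp90 genes differed. Hsp90aa1, the inducible form, was marked in knockout-GFP 1 (93.1) and knockout-GFP 2 (67.6) and in no other library, at its higher-coordinate end on chromosome 12, where the peak of knockout-GFP 1 spanned 110696348 to 110696634. Hsp90ab1, the constitutive form, had no peak.

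Hspd1 and Hspe1 encode the mitochondrial chaperonin Hsp60 and its lid, and are transcribed from opposite strands, with annotated genes that overlap at their starts. The same peak served both genes, with percentiles of 56.7 and 69.1 in knockout-GFP 1 and 2 and 46.4 in control-GFP 1. It spanned 55087896 to 55088326 on chromosome 1 in knockout-GFP 1, which covers the whole printed window, and 220 of its 300 bases were under a peak in knockout-GFP 2 and in control-GFP 1. These 2 genes therefore count a single peak, and no peak was called there in knockout-Acsl4 1, knockout-Acsl4 2 or control-GFP 2.

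The 10 genes of the Tcp1 and Cct family, named for the chaperonin TRiC, include Cct6b and Cct8l1, listed as known mainly from germ line, muscle, heart or lens. This family was marked in more libraries than any other. The counts were 1 and 3 in knockout-Acsl4 1 and 2, 4 and 4 in knockout-GFP 1 and 2, and 6 and 1 in control-GFP 1 and 2. Of all genes, 1.02% and 1.58%, 8.2% and 17.3%, and 16.7% and 2.0% were marked, in the same order. Tcp1 had percentiles of 78.2 and 87.3 in knockout-GFP 1 and 2 and 82.6 in control-GFP 1. Cct3, whose peak also lies at the end of Tsacc, had 89.3 and 53.8 in knockout-GFP 1 and 2 and 60.0 in control-GFP 1. Cct8 was marked in knockout-GFP 2 (63.2) and control-GFP 1 (33.9). Cct4 and the testis gene Cct8l1 had no peak.

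Cct5 was the single member marked in knockout-Acsl4 1, at a percentile of 16.1, and it was also marked in knockout-GFP 1 (63.7) and knockout-GFP 2 (56.0) and in neither control-GFP library. Over all genes 8 had a peak in these 3 knockout libraries and neither control (0.0366%). The peak of knockout-Acsl4 1, from 31601780 to 31601880 on chromosome 15, overlapped both knockout-GFP peaks and also lay at the end of the neighbour Atpsckmt.

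Cct7 showed the opposite pattern, with no peak in the 4 knockout libraries and percentiles of 45.6 and 80.8 in control-GFP 1 and 2. Its peaks, 85451312 to 85451851 and 85451152 to 85451407 on chromosome 6, overlapped and also lay at the end of Pradc1. The windows of Cct7 on the plus strand, chr6:85451255-85451554, and of Hspa14 on the minus strand, chr2:3512765-3513064, are shown because both genes were marked in both control-GFP libraries, as were Hsph1, printed above, and Hspa8, for which no window is printed. Here capitals mark the CCAAT box, present on the opposite strand as ATTGG, which each window holds 3 times. The box was picked for display, and how many promoters hold it 3 times was not counted. A copy was present in 42.0% of members and 42.3% of protein-coding genes. The Hsph1 window also holds the box, not in capitals.
Cct7: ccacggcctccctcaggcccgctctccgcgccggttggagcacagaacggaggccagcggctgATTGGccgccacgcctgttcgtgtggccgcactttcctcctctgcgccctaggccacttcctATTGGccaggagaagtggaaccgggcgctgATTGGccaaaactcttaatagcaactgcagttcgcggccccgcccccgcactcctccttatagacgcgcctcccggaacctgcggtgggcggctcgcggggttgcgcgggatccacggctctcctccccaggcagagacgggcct
Hspa14: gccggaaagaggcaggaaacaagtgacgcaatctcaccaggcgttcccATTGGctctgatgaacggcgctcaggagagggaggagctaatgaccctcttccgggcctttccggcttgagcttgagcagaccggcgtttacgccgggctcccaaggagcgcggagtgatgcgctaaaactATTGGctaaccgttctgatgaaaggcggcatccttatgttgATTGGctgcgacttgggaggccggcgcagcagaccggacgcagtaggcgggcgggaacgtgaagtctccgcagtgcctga

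In the knockout-Acsl4 libraries 0 bases of either window lay under a peak. Of the Cct7 window, 243 and 153 bases lay under a peak in control-GFP 1 and 2. Of the Hspa14 window, 209 bases lay under a peak in knockout-GFP 2 and 259 and 185 bases in control-GFP 1 and 2. In both windows the CCAAT box nearest the gene start lay outside the peak of control-GFP 2.

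The 3 chaperonin genes marked in knockout-Acsl4 2 were Cct2 (4.55), Cct6b (4.55) and Cct6a (86.6). The peaks of Cct2 and Cct6a overlapped no peak of the same gene in another library, and Cct6b was marked in no other library. The Cct6a peak lay at the far end of the annotated gene, which RefSeq extends to 129846443 on chromosome 5, next to Sumf2. The other members marked in knockout-Acsl4 2 were Dnajb4 (14.0), Hspb3 (4.55) and Hsf2. The Dnajb4 peak overlapped peaks of other libraries, whereas Hspb3 and Hsf2 were marked in no other library. The median percentile of the 6 member peaks in that library was 9.26, against 57.3 for all its gene-end peaks.

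**Figure D3:**
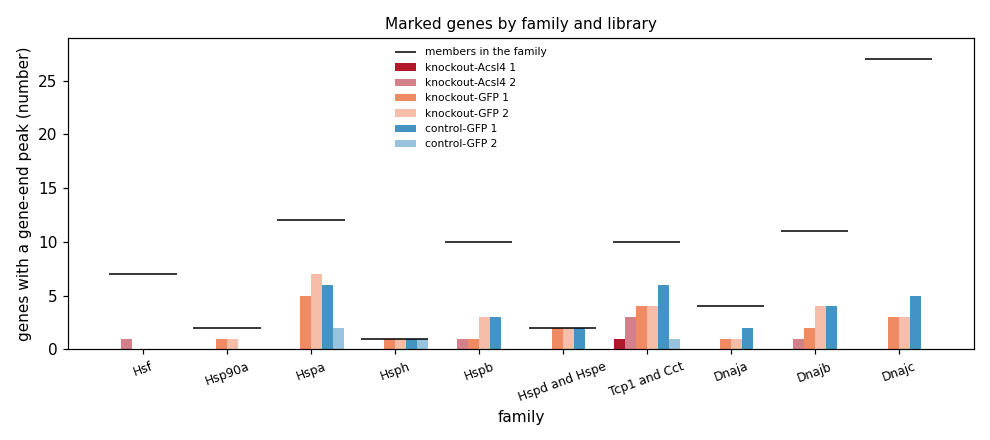
Number of genes with a gene-end peak in each of the 10 families (x axis) and each library (bars); the black line is the number of members in the family. The Hspa and the Tcp1 and Cct families reach 7 and 6 marked genes, and the Dnajc family, with 27 members, does not exceed 5.

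The J-domain genes form the Dnaja, Dnajb and Dnajc families, whose counts stand beside the 24.5% of all genes marked in some library. Of 4 Dnaja genes, Dnaja3, a mitochondrial co-chaperone, was marked in knockout-GFP 1 and 2 (22.6 and 41.8) and control-GFP 1 (42.6), and Dnaja1, a main cytosolic partner of Hsp70, in control-GFP 1 only (73.5). Dnaja2 and Dnaja4 were unmarked. Dnajb1, the stress-induced partner of Hsp70, had 9.84 and 95.0 in knockout-GFP 1 and 2 and 88.4 in control-GFP 1. Dnajb5 had a similar spread, with 25.7 and 93.4 in knockout-GFP 1 and 2 and 84.4 in control-GFP 1.

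Dnajb4 was marked in knockout-Acsl4 2, knockout-GFP 2 (70.4) and control-GFP 1 (57.0), by a peak that also lies at the end of Fubp1. Dnajb12, an ER membrane protein, was marked in knockout-GFP 2 (12.8) and control-GFP 1 (43.3), but at opposite ends of the gene. Of the 11 Dnajb genes 4 were marked in some library, where 24.5% of all genes were, and the other 7 had no peak. Among 27 Dnajc genes 8 were marked, not far from the 24.5% of all genes. Of these, Dnajc13 alone was marked in 3 libraries. The gene encodes an endosomal J protein and had 60.9 and 85.4 in knockout-GFP 1 and 2 and 67.9 in control-GFP 1. Dnajc16 was marked in 2 libraries, and Dnajc10, Dnajc11, Dnajc12, Dnajc14, Dnajc17 and Dnajc30 in 1 each.

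Of 10 genes whose symbol starts with Hspb, the prefix of the small heat shock proteins, 4 were marked in some library, where 24.5% of all genes were, and Hspb1, Hspb2, Hspb7, Hspb8, Hspb9 and Hspbap1 were not. Hspb11, the intraflagellar transport gene, had 34.2 and 76.3 in knockout-GFP 1 and 2 and 92.1 in control-GFP 1, in a peak shared with Lrrc42. Hspbp1, which encodes a nucleotide exchange factor of Hsp70 and not a small heat shock protein, had 83.3 in knockout-GFP 2 and 80.7 in control-GFP 1. Hspb6, a muscle gene, had 19.1 in knockout-GFP 2 and 63.0 in control-GFP 1, next to Proser3. Hspb3 was marked in knockout-Acsl4 2 only.

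A list of 13 members reported as HSF1 targets in mammalian cells also holds Hspa8 and Hsp90ab1, which are expressed without stress. Of the 13 genes, 9 were marked in some library, where 24.5% of all genes were. Per library the counts were 0 and 1 in knockout-Acsl4 1 and 2, 7 and 8 in knockout-GFP 1 and 2, and 8 and 2 in control-GFP 1 and 2. Of all genes, 1.02% and 1.58%, 8.2% and 17.3%, and 16.7% and 2.0% were marked, in the same order. Against the same 24.5%, mitochondrial members were marked in 6 of 10 cases and those of the endoplasmic reticulum in 5 of 10. Members known mainly from germ line, muscle, heart or lens were marked in 4 of 19 cases, near the share of all genes, and Hspa2 among them was marked in 3 libraries.

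Most peaks sat at gene starts. Of 72 pairs of a peak and a member in the promoter table, 68 had the peak centre within 500 bp of a RefSeq start, 42 had the start under the peak, and 54 had the centre upstream of it, with a median distance of -86.5 bp. The 4 exceptions were those of Dnajb12 in control-GFP 1 and of Hsf2, Hspb3 and Cct6a in knockout-Acsl4 2. Of 27 members marked in at least 2 libraries, 24 had overlapping peaks in every pair of those libraries, the others being Cct2, Cct6a and Dnajb12. Hspd1 and Hspe1 count the same peaks here. Neither this overlap nor the distance to gene starts was measured over all genes. At 15 of the 38 marked members (39.5%) a peak also lay at the end of another protein-coding gene, against 31.5% of all marked genes, so those peaks cannot be given to one gene.

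**Figure D4:**
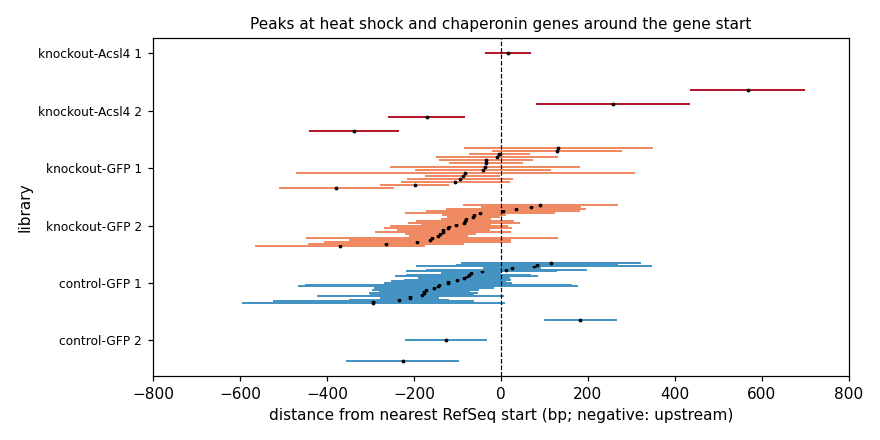
Peaks at members in the promoter table around the nearest RefSeq start (x axis, bp, negative upstream), one line per peak with its centre as a dot, stacked within each library (y axis). Centres lie mostly within 500 bp of the start; the 3 peaks of Dnajb12, Hsf2 and Cct6a at the far gene end are outside the axis.

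The median percentile of the member peaks was 56.7 in knockout-GFP 1, 67.6 in knockout-GFP 2 and 60.0 in control-GFP 1, where all gene-end peaks had medians of 53.2, 51.9 and 54.0. It lay below that of all gene-end peaks in the other 3 libraries, with 16.1 against 42.1 in knockout-Acsl4 1, 9.26 against 57.3 in knockout-Acsl4 2 and 46.5 against 64.5 in control-GFP 2, over 1, 6 and 4 member peaks. When each list was reduced to its best 525 peaks, the length of the shortest, 1 and 0 members were marked in knockout-Acsl4 1 and 2, 6 and 5 in knockout-GFP 1 and 2, and 4 and 1 in control-GFP 1 and 2. Of all genes, 1.02% and 0.0868% were then marked in knockout-Acsl4 1 and 2, 1.9% and 1.92% in knockout-GFP 1 and 2, and 1.91% and 0.877% in control-GFP 1 and 2. Hspa8 and Hspa13 were among these in knockout-GFP 1, knockout-GFP 2 and control-GFP 1.

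What loss of Rictor changes in islets with the GFP virus is the question of knockout-GFP against control-GFP. On average 26.7% ± 4.93 of members were marked in knockout-GFP and 19.2% ± 20.6 in control-GFP (SD, n = 2 each), a difference of 7.56 percentage points that lay within the spread of the control libraries (two-sided exact permutation p = 1.0; the smallest possible is 0.333). Over all genes the means were 12.8% ± 6.44 in knockout-GFP and 9.34% ± 10.4 in control-GFP. Without control-GFP 2 the difference over members was -6.98 percentage points. Marked in both knockout-GFP libraries and neither control-GFP library were 2 members, Hsp90aa1 and Cct5, where 1.04% of all genes had this pattern. The reverse pattern was that of Cct7 alone, where 0.0914% of all genes had it. The knockout-GFP pattern was held by 15 members without control-GFP 1 and by 4 without knockout-GFP 1 or without knockout-GFP 2. The control-GFP pattern was held by 6 members without control-GFP 2 and by 2 without knockout-GFP 2. The counts with a library left out were made over members only, so no share of all genes stands beside them.

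What added Acsl4 changes where Rictor is missing is the question of knockout-Acsl4 against knockout-GFP. On average 4.07% ± 4.11 of members were marked in knockout-Acsl4 and 26.7% ± 4.93 in knockout-GFP (SD, n = 2 each), a difference of -22.7 percentage points. Both knockout-Acsl4 values lay below both knockout-GFP values, and the two-sided exact permutation p was 0.333, the smallest that 2 against 2 can give. Over all genes the means were 1.3% ± 0.391 in knockout-Acsl4 and 12.8% ± 6.44 in knockout-GFP. Marked in both knockout-GFP libraries and neither knockout-Acsl4 library were 16 of the 17 members marked in both knockout-GFP libraries, where 5.79% of all genes had the pattern. Over all genes, 87.6% of those marked in both knockout-GFP libraries had it. Cct5 was the exception, and 0 members had the reverse pattern, where 0.00914% of all genes had it. The reverse pattern was held by 4 members without knockout-Acsl4 1, a count not made over all genes. At equal list lengths the 16 became 2, again counted over members only. The low number of gene-end peaks in both knockout-Acsl4 libraries moves with this count, and its part in the result was not tested.

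Both changes together, virus and genotype, separate knockout-Acsl4 from control-GFP, a comparison that shares its libraries with the other 2. On average 4.07% ± 4.11 of members were marked in knockout-Acsl4 and 19.2% ± 20.6 in control-GFP (SD, n = 2 each), a difference of -15.1 percentage points (two-sided exact permutation p = 0.667). Over all genes the means were 1.3% ± 0.391 in knockout-Acsl4 and 9.34% ± 10.4 in control-GFP. The difference over members was -0.581 percentage points without control-GFP 1 and -29.7 without control-GFP 2. The pair of control-GFP libraries marked 4 members that neither knockout-Acsl4 library marked, Cct7, Hspa14, Hspa8 and Hsph1, where 1.32% of all genes had the pattern. The reverse pattern was found at 0 members, where 0.00457% of all genes had it. Only 4 members were marked in both control-GFP libraries at all, and without control-GFP 2 the count was 26. The reverse pattern was held by 3 members without knockout-Acsl4 1 and by 1 without knockout-Acsl4 2. With a library left out, neither pattern was counted over all genes.

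Partners of these chaperones outside the symbol rule were marked mostly in the libraries that marked the most members, which also marked the most genes of any kind. Of 29 co-chaperones of Hsp70 and Hsp90, 19 were marked in some library, where 24.5% of all genes were. Per library, where between 1.02% and 17.3% of all genes were marked, the counts were 0 and 0 in knockout-Acsl4 1 and 2, 7 and 16 in knockout-GFP 1 and 2, and 14 and 3 in control-GFP 1 and 2. Bag1, a nucleotide exchange factor of Hsp70, was marked in both knockout-GFP libraries (70.1 and 74.7) and both control-GFP libraries (84.9 and 63.8), the same libraries as Hspa8 and Hsph1. Stip1, which links Hsp70 to Hsp90, had 65.2 and 80.4 in knockout-GFP 1 and 2 and 94.3 in control-GFP 1. Bag4, Chordc1, St13 and Sugt1 were marked in these 3 libraries too, and Tomm70a, the mitochondrial import receptor that docks both chaperones, in knockout-GFP 2, control-GFP 1 and control-GFP 2. Of 12 prefoldin and phosducin-like cofactors, which hand clients to TRiC or regulate it, 4 were marked, not far from the 24.5% of all genes, and Txndc9 alone in 3 libraries.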

How the data were processed

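The authors deposited a headerless peak list per library, with a value per peak that was read as a −log10 q-value because the smallest value in each list lies just above 1.3, the −log10 of 0.05. Per the submitters' processing notes, the tools included MACS2 2.1.1 and BWA 0.7.10 beside SAMtools, Trimmomatic and FastQC, with no settings given. These notes name human builds although the organism is mouse. Positions were read as GRCm38, since peaks sit at its gene starts, and are printed 1-based. Read depth is unknown, and the number of peaks is not a measure of it. Each deposited value ranks a peak within its own library only.

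Gene positions and promoters came from RefSeq tables of GRCm38.p6, restricted to protein-coding genes. Overlap of at least 1 bp counted, and the marking step was tested on simulated data, where 200 of 200 planted genes were recovered. Group shares were compared by exact permutation over libraries. Intervals are exact Clopper-Pearson 95% intervals. Alternatives were windows of 250 bp and 3000 bp, the better 50% of each list, equal list lengths, autosomes, peak midpoints, leaving out each library, and pairing by replicate number. Calculations used Python 3.11.15, pandas 2.3.3 and SciPy 1.17.1.

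The members and lists were chosen with earlier results of these data known. Genes were named when marked in at least 3 libraries, when marked in one group only, when the strongest of a family, or as members of the Hsf, Hsp90a, Hspa, Hsph, Hspd, Hspe, Tcp1 and Cct groups. The remaining marked members of the Hspb and J-domain families were named after their values were seen, to account for every marked member.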

Additional observations from a re-analysis of the deposited data

How the results depend on the processing

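The direction of the share of members marked was the same under both other windows, the better 50% of each list, equal list lengths, autosomes and peak midpoints in all 3 comparisons. Leaving out 1 library gave differences between -6.98 and 22.1 percentage points for knockout-GFP against control-GFP, between -26.2 and -19.2 for knockout-Acsl4 against knockout-GFP, and between -29.7 and -0.581 for knockout-Acsl4 against control-GFP. The sign turned to -6.98 without control-GFP 2, whose list held 4 marked members. The share of members did not stay above that of all genes in every library. With the better 50% of each list it was 0.0% against 0.366% in knockout-Acsl4 1 and 1.16% against 1.25% in control-GFP 2. At equal list lengths it was 0.0% against 0.0868% in knockout-Acsl4 2.

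For knockout-GFP against control-GFP the members marked only in knockout-GFP numbered 5 with the better 50% of each list, 0 at equal list lengths, and 2 to 15 with a library left out. Those marked only in control-GFP numbered 0 with the better 50%, 0 at equal lengths, and 1 to 6 with a library left out. For knockout-Acsl4 against knockout-GFP, members marked only in knockout-GFP numbered 10 with the better 50%, 2 at equal lengths and 16 to 24 with a library left out, and the knockout-Acsl4-only count was 0 to 4. For knockout-Acsl4 against control-GFP the control-GFP-only count was 0 with the better 50%, 0 at equal lengths and 4 to 26 with a library left out, and the knockout-Acsl4-only count was 0 to 3. Equal lengths and the better 50% keep fewer peaks by construction. The cause of the other changes was not tested. All these counts are of members, and the same patterns were not counted over all genes under these settings.

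The replicate numbers are shared only as numbers. With the replicate block the exact sign-flip p was 1.0, 0.5 and 1.0 in the same order, where 0.5 is the smallest possible. The differences in share, 7.56, -22.7 and -15.1 percentage points, are the same with and without the block by construction. So are the group-only counts, and neither is a check of the results. Within number 1 and number 2 the differences were -10.5 and 25.6 for knockout-GFP against control-GFP, -22.1 and -23.3 for knockout-Acsl4 against knockout-GFP, and -32.6 and 2.33 for knockout-Acsl4 against control-GFP.

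A gene without a peak was not called open at the depth of its library, which is not the same as closed chromatin.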

Other observations

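Of 13 chaperones and proteases of mitochondria and the endoplasmic reticulum outside the symbol rule, 10 were marked in some library, where 24.5% of all protein-coding genes were. Per library, where between 1.02% and 17.3% of all genes were marked, the counts were 1 and 0 in knockout-Acsl4 1 and 2, 8 and 8 in knockout-GFP 1 and 2, and 6 and 1 in control-GFP 1 and 2. Hsp90b1, the Hsp90 of the endoplasmic reticulum, had percentiles of 84.6 and 90.1 in knockout-GFP 1 and 2 and 69.2 in control-GFP 1. Grpel1, the nucleotide exchange factor of the mitochondrial Hsp70, had 38.4 and 81.1 in knockout-GFP 1 and 2 and 67.2 in control-GFP 1. Clpp, Hscb and Sec63 were marked in the same 3 libraries. The 1 gene marked in knockout-Acsl4 1 was Clpx, the mitochondrial unfoldase, at a percentile of 48.4.

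Of the 48 members without a gene-end peak, 5 had a peak farther inside the gene, and this was not counted for other genes. Dnajc1, an ER membrane J protein, had one in knockout-GFP 1 and 2 (8.84 and 81.2) and control-GFP 1 (73.6), which in knockout-GFP 2 spanned 18392523 to 18392832 on chromosome 2. Dnajc5, the cysteine string protein of secretory vesicles, had one in knockout-GFP 2 (25.9) and control-GFP 1 (52.3). These are among the libraries that marked the most members and the most genes of any kind, and a window of 1000 bp leaves both genes out. The inside peaks of Hspa12a, Dnajc5b and Dnajc6 were found in knockout-Acsl4 2 only, a list with 5.29% of its peaks at gene ends.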
